A study of Mus musculus with 12 samples.

Results

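The interferon response genes are a set of 37 mouse genes taken from a list of names, with no threshold on a measured value: genes that cells switch on when an interferon, a secreted alarm protein, binds its receptor. In these data 36 of the 37 had a probe on the array, all but Mx1, and their 47 probes all passed the filter on dim probes, so that 36 of the 19644 genes measured are described here. Of the 36 genes, 31 were well above background on all 12 arrays, 4 (Irf7, Oas2, Ifi44, and Cxcl10) on some arrays, and Oas3 on no array, so Oas3 has no level in these data.

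When an interferon of the alpha or beta type binds its receptor, Janus kinases activate transcription factors such as STAT2, which joins IRF9 and binds a DNA element built of repeated GAAA letters in front of the response genes. Interferon gamma acts mainly through the element TTCNNNGAA and through IRF1. In the brain microglia, astrocytes, endothelial cells, and neurons can all respond, and microglia with a high expression of these genes are known from mouse brain with amyloid deposits.

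There were 12 mouse models with 1 Agilent one-colour array each, and each array held RNA pooled from 3 animals. Prefrontal cortex came from C57BL/6 mice aged 1.5, 4, 17, and 22 months, with no transgene or agent. Hippocampus came from C57BL/6 mice that carry a mutated human NCSTN gene (10 months), overexpress wild-type human MAPT (12 months), or carry the 5xFAD transgenes, which drive amyloid deposits (6 months), and as each model has an age of its own the effects of both cannot be told apart. Hippocampus also came from ICR mice aged 7 weeks in 3 treatments: Aβ1-42 (5 or 10 μM) injected into the ventricle 14 days before the tissue was taken, streptozotocin (2.5 or 3 mg/kg) given by the same route and at the same time, and scopolamine (1 mg/kg) given into the peritoneum 30 minutes before. Before the tissue was taken, every animal went a night without food and was put under isoflurane. Untreated, vehicle, and non-transgenic control arrays were not analysed here. The arrays form sets of 4 (cortex), 3 (transgenic hippocampus), and 5 (ICR hippocampus), and the log2 ratio of a gene on an array is its log2 signal minus its mean over the rest of that set. The ratios of a gene within a set sum to 0, so that a high value on any array pulls its partners below 0.

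With 1 array for each model there is no spread between animals or hybridizations, no test was possible, and precision is set by how few arrays there are. The only replicate error is that between spots: probes printed 10 times and well above background had a median SD of 0.045 to 0.057 log2 units over the arrays, which leaves out all biological variation. A gene is counted as higher or lower where it differed at least 2-fold, and the share of all 19644 genes that did so stands beside each count as background. The summed levels of the region markers followed the tissue labels. On the log2 scale 5 cortex markers summed to 13.0 to 13.5 on the cortex arrays and 10.6 to 11.6 on the hippocampus arrays. The 5 hippocampus markers summed to 12.8 to 13.8 and to 14.3 to 15.2. Among them Lefty1 went against the labels, at 6.09 to 6.73 in cortex and 1.82 to 4.59 in ICR hippocampus. Xist, transcribed in female cells, was at 8.58 to 8.73 on the 3 transgenic arrays and at 2.94 or lower on the other 9, and the Y-linked gene Eif2s3y was at 2.25 or lower on the 3 and 9.21 or higher on the 9, whereas the methods call the mice male. The summed choroid plexus markers ranged from 8.62 to 15.6 in cortex and from 11.6 to 17.6 in ICR hippocampus, and they are given again beside the results of those sets. In such bulk samples a change in the number of cells of a type and a change in RNA per cell cannot be told apart.

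Promoter sequences were shown for members that lead or oppose the results below, because the interferon elements can be read in them. RefSeq promoters (build GRCm38.p6, 250 bases before to 50 after the start) were on hand for 27 of the 37 genes. The first motif, GAAA followed by any 2 letters and GAAA again, was searched on both strands, so that a pair of TTTC runs spaced alike counts as well, and it stood in the promoters of 18 of these 27 genes (66.7%), whereas 3.99% of the 27025 genes in the table held them. TTCNNNGAA, which reads the same on both strands, stood in 7 of 27 (25.9%) against 9.55% of all genes. Both motifs stood in 5 genes (Bst2, Eif2ak2, Ifitm3, Igtp, and Oas1a), and in Bst2 and Ifitm3 the letters of both overlapped. Cxcl10 had the highest log2 ratio on the 5xFAD array and in the older cortex. The other sequences were chosen after the values were seen: Oas1a and Stat2 were high on the 5xFAD array, Ifit1, Ifit2, and Ifit3 differed in direction in ICR mice, and Irf1 has the TTCNNNGAA motif only. The sequences run 5′ to 3′ on the strand of the gene and end before the start of the transcript, with both kinds of motif in capitals:
Cxcl10, chr5:92349078-92349117, minus strand: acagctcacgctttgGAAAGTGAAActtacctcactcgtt
Oas1a, chr5:120907526-120907638, minus strand: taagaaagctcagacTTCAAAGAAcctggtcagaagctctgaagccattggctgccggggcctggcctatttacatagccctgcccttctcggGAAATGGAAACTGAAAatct
Stat2, chr10:128270261-128270300, plus strand: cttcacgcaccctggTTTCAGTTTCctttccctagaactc
Ifit1, chr19:34640770-34640828, plus strand: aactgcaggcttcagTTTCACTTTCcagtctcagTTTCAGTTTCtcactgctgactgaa
Ifit2, chr19:34550444-34550476, plus strand: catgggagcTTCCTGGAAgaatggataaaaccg
Ifit3, chr19:34583358-34583431, plus strand: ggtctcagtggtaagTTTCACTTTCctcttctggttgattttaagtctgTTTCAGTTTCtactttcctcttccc
Irf1, chr11:53769909-53769947, plus strand: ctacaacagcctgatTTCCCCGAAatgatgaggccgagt
Oas1a carried 2 matches of the GAAA motif that share letters next to the start, and Ifit1 and Ifit3 each carried a pair spaced apart. Ifit2, the neighbour of Ifit3 with no protein-coding gene between them, held no such match in the window shown here.

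Within the transgenic set the response genes as a group stood highest on the 5xFAD array, as the map of log2 ratios shows. Their median log2 ratio there was 0.81, whereas that of all genes was -0.05, and it was -0.34 on the NCSTN array and -0.56 on the MAPT array. On the ICR arrays the median was 0.14 with Aβ at 5 μM, 0.32 with Aβ at 10 μM, -0.41 with streptozotocin at 2.5 mg/kg, -0.02 with streptozotocin at 3 mg/kg, and -0.09 with scopolamine. In cortex it was -0.29 at 1.5 months, 0.14 at 4 months, 0.19 at 17 months, and -0.07 at 22 months. Medians of different sets rest on different reference arrays, so they do not rank levels between sets.

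**Figure D1:**
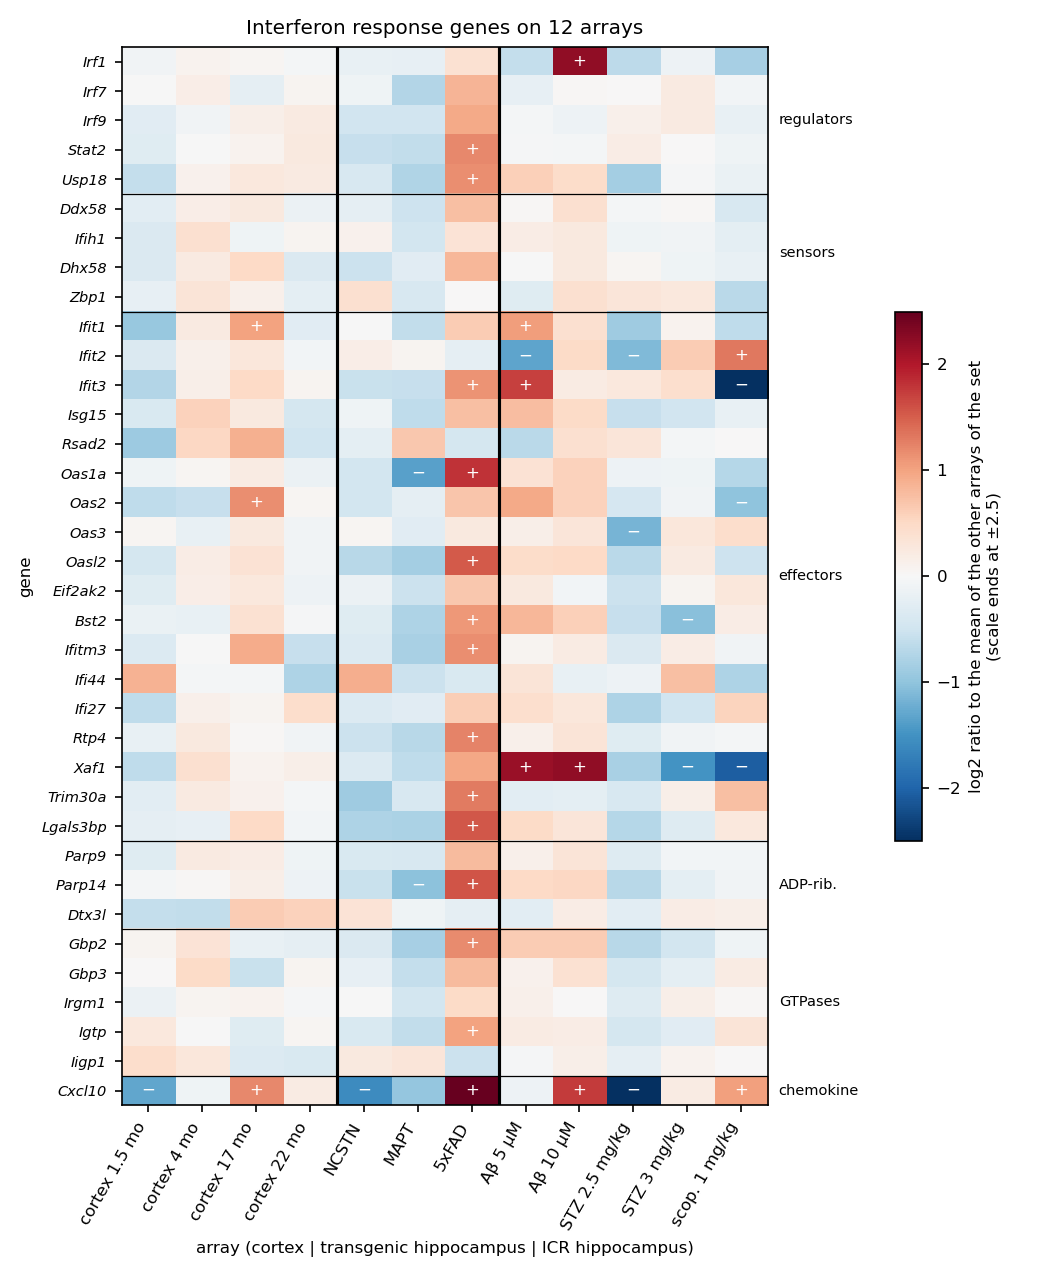
Log2 ratio of each of the 36 response genes (from top to bottom, grouped by role) on each of the 12 arrays (columns; STZ, streptozotocin; scop., scopolamine; mo, months); a plus or minus sign marks a difference of at least 2-fold, and colours end at ±2.5. The 5xFAD column holds 14 plus signs and no minus sign, and no other column holds more than 3 plus signs.

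In transgenic hippocampus the 5xFAD array was the highest of the 3 for 30 of the 36 members, against 37.1% of all genes. At least 2-fold higher on the 5xFAD array were 14 of the 36 members, against 6.04% of all genes, and at least 2-fold lower were 0, against 4.7%. The 14 were Cxcl10, Oas1a, Parp14, Lgals3bp, Oasl2, Trim30a, Rtp4, Stat2, Gbp2, Usp18, Ifitm3, Ifit3, Bst2, and Igtp, and all of them were well above background on all 3 arrays. With normexp background correction, which adds a constant to every signal and so draws ratios toward 0, the count was 8 and the median 0.53.

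Cxcl10, a chemokine that draws activated T cells, stood furthest apart. Its log2 signal was 6.09 on the NCSTN array, 6.50 on the MAPT array, and 8.84 on the 5xFAD array, a log2 ratio of 2.55 or 5.85-fold for 5xFAD that lay above that of 99.4% of all genes. The NCSTN and MAPT values lay close together, and the 5xFAD value stood well above both. The ratio of Cxcl10 on the NCSTN array was -1.58, but NCSTN differed from MAPT alone by -0.40.

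The regulators of the response were all higher on the 5xFAD array, 5 of 5, against 44.1% of all genes, with a median of 0.95. Stat2, a subunit of the transcription factor that binds the GAAA element, was at 10.16, 10.14, and 11.36 on the NCSTN, MAPT, and 5xFAD arrays, a ratio of 1.21. Its DNA-binding partner Irf9 followed it at 9.41, 9.41, and 10.36, a ratio of 0.95. Usp18, a protease that removes ISG15 from proteins and damps receptor signalling, was at 6.54, 6.31, and 7.58, a ratio of 1.16. For these 3 genes the NCSTN and MAPT arrays lay within 0.23 of each other, less than the distance of either from the 5xFAD array. Irf7, which amplifies the production of interferon alpha, had a ratio of 0.85, and Irf1 one of 0.38. The brighter Irf1 probe was at 0.55, and the dimmer one (0.22) was not well above background on the transgenic arrays.

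The sensors of foreign nucleic acid were shifted less, with a median of 0.55 and none at least 2-fold higher. Dhx58 (ratio 0.82) and Ddx58 (0.74), which encode the RNA sensors LGP2 and RIG-I, stood above Ifih1 (0.35), which encodes MDA5. Zbp1, a sensor of left-handed nucleic acid, was at 0.02.

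Among the antiviral effectors, 15 of 18 had a ratio above 0 on the 5xFAD array, against 44.1% of all genes, with a median of 0.86. Oas3, with no level, is among the 15, and 8 were at least 2-fold higher, against 6.04% of all genes. Oas1a and Oasl2 belong to the oligoadenylate synthetase family, which senses double-stranded RNA. Oas1a was at 6.72, 6.12, and 8.23 on the NCSTN, MAPT, and 5xFAD arrays, a ratio of 1.81 for 5xFAD and of -1.35 for MAPT. Both Oas1a probes had their highest value on the 5xFAD array, with ratios of 2.23 and 1.38. Oasl2 was at 7.62, 7.51, and 9.10, a ratio of 1.54.

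Lgals3bp, a secreted glycoprotein that binds galectins, was at 10.86, 10.85, and 12.40, a ratio of 1.55. Trim30a, a ubiquitin ligase family member that restrains inflammatory signalling, was at 5.65, 5.98, and 7.11, a ratio of 1.29. Rtp4, a chaperone of receptors that also curbs the replication of flaviviruses, was at 8.58, 8.49, and 9.77, a ratio of 1.23. In each of these genes the 5xFAD array stood apart from a close pair of the other arrays.

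Ifitm3, a membrane protein that blocks the entry of viruses and also binds gamma-secretase, was at 9.81, 9.50, and 10.82, a ratio of 1.16. Ifit3, which binds viral RNA together with IFIT1, was at 9.13, 9.11, and 10.25, a ratio of 1.13. Bst2, which tethers budding virus to the cell, was at 9.68, 9.36, and 10.59, a ratio of 1.08. The remaining effectors did not reach 2-fold in the mean of their probes, and among them Xaf1 (0.97), Isg15 (0.75), Oas2 (0.69), Eif2ak2 (0.68), Ifit1 (0.63), and Ifi27 (0.61) lay above 0. The brighter Isg15 probe did pass 2-fold, with a ratio of 1.06, where the dimmer one was at 0.44.

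The effectors did not all stand high on the 5xFAD array. Rsad2, which encodes the antiviral enzyme viperin, was at 5.99, 6.60, and 5.85, so that the 5xFAD array was the lowest of the 3. Ifi44 was highest on the NCSTN array, at 5.83, 4.88, and 4.98. Ifit2 was at 7.13, 7.07, and 6.88, a ratio of -0.22 for 5xFAD, although its family members Ifit1 and Ifit3 had ratios of 0.63 and 1.13.

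Of the ADP-ribosylation genes, Parp14 was at 7.44, 7.13, and 8.86, a ratio of 1.58 for 5xFAD and of -1.02 for MAPT. Parp9 was at 7.34, 7.33, and 8.12, a ratio of 0.79. Dtx3l, the ubiquitin ligase that works as a partner of PARP9, lies between Parp14 and Parp9 with no protein-coding gene on either side. It did not follow them: its brighter probe was at 8.06, 8.28, and 8.21, and its gene ratio was -0.22, an average with a dimmer probe near background.

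The inducible GTPases attack the vacuoles of pathogens and are classic targets of interferon gamma. Gbp2 was at 8.09, 7.77, and 9.12, a ratio of 1.19, and Igtp, at 8.79, 8.65, and 9.72, lay on the 2-fold line. Gbp3 (0.79) and Irgm1 (0.48) lay above 0 as well. Iigp1 was the lowest of all members on the 5xFAD array with a ratio of -0.54, and its brighter probe was at 7.92, 8.05, and 7.21.

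**Figure D2:**
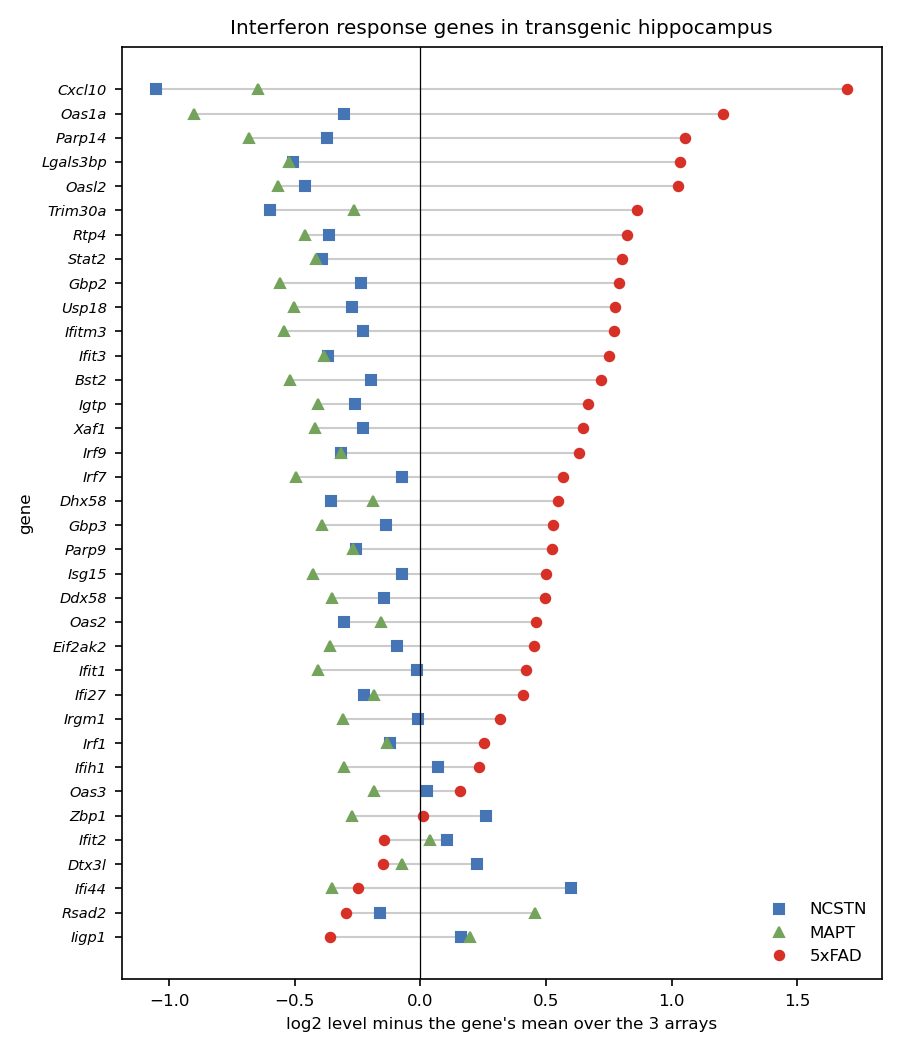
Log2 level of each of the 36 response genes on the NCSTN (squares), MAPT (triangles), and 5xFAD (circles) arrays, minus the mean of the gene over the 3 arrays; grey bars span the 3 values, and genes are sorted by their 5xFAD ratio. The 5xFAD circle lies right of both other symbols for 30 of the 36 genes, and Iigp1, Rsad2, and Ifi44 lie at the bottom.

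The NCSTN and MAPT arrays had 0 members at least 2-fold higher than the mean of the other 2 arrays, against 2.5% and 1.89% of all genes. At least 2-fold lower were 1 member (Cxcl10) on the NCSTN array, against 2.26%, and 2 (Oas1a and Parp14) on the MAPT array, against 2.91%. These calls, and the low medians of both arrays, rest on the 5xFAD array as a reference: set against each other, 0 of 36 members were at least 2-fold higher on NCSTN (2.22% of all genes) and 0 were lower (1.76%). NCSTN then lay above MAPT for 28 of the 36 members, against 54.9% of all genes, by a median of 0.20 against 0.02 for all genes, and MAPT was the lowest of the 3 arrays for 26 of 36 members, against 29% of all genes. The 3 members furthest above 0 on the NCSTN array were Ifi44 (0.90), Zbp1 (0.39), and Dtx3l (0.34), and on the MAPT array they were Rsad2 (0.68), Iigp1 (0.30), and Ifit2 (0.06). The brighter probes of Zbp1 and Dtx3l had ratios of 0.01 and -0.18 on the NCSTN array. Their dimmer probes (0.77 and 0.85) were not well above background there. The lowest after Cxcl10 on the NCSTN array were Trim30a (-0.89) and Lgals3bp (-0.76), and on the MAPT array Cxcl10 was at -0.97.

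Other genes of the interferon pathway were read from a list of 102 measured genes that are no members, of which 21 were at least 2-fold higher and 1 at least 2-fold lower on the 5xFAD array, against the same 6.04% and 4.7% of all genes. Of the 9 interferon genes themselves, Ifnb1, Ifng, Ifna4, and Ifne were not well above background on any array. Ifnk was well above background on the 5xFAD array and on neither of the other 2, with log2 signals of 2.37, 2.11, and 4.48. Of the 6 receptor genes, Ifnar2, a subunit of the receptor for interferon alpha and beta, was at 10.25, 10.20, and 11.31, whereas Ifnar1 had a ratio of -0.09.

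The transcription factors Irf8 and Irf5 and the feedback inhibitor Socs3 were at least 2-fold higher on the 5xFAD array, with ratios of 2.32, 1.47, and 1.93. The same held for the DNA sensors Ifi204 (1.99) and Aim2 (1.95), and for genes of antigen processing, among them B2m (1.33), Psmb8 (1.30), and Tap1 (1.23). Tgtp1, a GTPase like Iigp1, was the single gene of the list at least 2-fold lower, with a ratio of -1.72. The 62 other induced genes had a median of 0.46.

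Microglia markers moved with these values. Of 10 listed, 9 were measured and all 9 were well above background on each transgenic array. Their summed log2 level was 14.54 on the NCSTN array, 14.48 on the MAPT array, and 16.14 on the 5xFAD array, and their median ratio on the 5xFAD array was 1.31, above the 0.81 of the response genes. Irf8 and several other genes named above are also expressed by microglia. Astrocyte markers had a median ratio of 0.43 on the 5xFAD array, T cell markers one of -0.08, and 3 monocyte markers one of -0.87. Only 4 of 6 T cell and 2 of 3 monocyte markers were well above background there, so these medians rest in part on dim values. The part of microglia in the result was not tested.

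In ICR hippocampus both Aβ arrays stood above the other 3 arrays for 15 of the 36 members, against 9.65% of all genes, and above both streptozotocin arrays for 18 of 36, against 19.8%. The 15 were Usp18, Ddx58, Ifih1, Ifit1, Isg15, Oas1a, Oas2, Oasl2, Bst2, Rtp4, Xaf1, Lgals3bp, Parp9, Parp14, and Gbp2. Most of these differences were under 2-fold. With the brightest probe of each gene the count was 17, of which 14 were among the 15: Xaf1 dropped out, as its brighter probe was lowest on the Aβ arrays, and Irf1, Irgm1, and Zbp1 came in. Bst2 was at 9.68 and 9.48 with Aβ at 5 and 10 μM, at 8.54 and 8.17 with streptozotocin at 2.5 and 3 mg/kg, and at 9.15 with scopolamine. Isg15, a ubiquitin-like protein that is attached to other proteins, was at 7.96, 7.72, 6.88, 6.95, and 7.20 in the same order, and Gbp2 was at 8.89, 8.89, 7.83, 8.02, and 8.30. In all 3 genes both Aβ arrays lay above the scopolamine array, which lay above both streptozotocin arrays.

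Markers of other tissues and cells differed between these arrays as well. The 5 choroid plexus markers summed to 17.5 and 17.6 on the Aβ arrays at 5 and 10 μM and to 17.5 on the scopolamine array, but to 11.6 and 12.4 on the streptozotocin arrays at 2.5 and 3 mg/kg, on the log2 scale. The 5 meninges markers had a median ratio of 1.76 and 1.34 on the Aβ arrays, -2.20 and -0.34 on the streptozotocin arrays, and -0.49 with scopolamine, so that they stood high with Aβ but did not follow the order of the other 3. The 5 endothelium markers had a median of 0.32 and 0.26 on the Aβ arrays, with 5 of 5 above 0 on both, and medians below 0 on the other 3. Granulocyte (1.23) and monocyte (1.18) markers were high at 5 μM, where their medians at 10 μM were -0.39 and 0.20. All 3 monocyte markers were well above background at 5 μM, but only 1 was on each streptozotocin array. Microglia markers lay the other way, with 9 of 9 lower on the mean of the Aβ arrays than on that of the streptozotocin arrays, by a median of -0.34. The Aβ arrays were also set against the scopolamine array alone, a comparison chosen after seeing the data because its choroid plexus level was alike. The members then had a median of 0.15 at 5 μM with 24 of 36 above 0, where 45.4% of all genes were above 0. At 10 μM the median was 0.32 with 29 of 36 above 0, against 49.6% of all genes. These arrays also differ in the route and time of injection. Their meninges markers summed to 15.3 and 14.9 with Aβ at 5 and 10 μM and to 13.9 with scopolamine. The part of these tissues and cells in the result was not tested.

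At least 2-fold higher with Aβ at 5 μM were 3 members (Xaf1, Ifit3, and Ifit1), against 3.82% of all genes, and 1 (Ifit2) was lower, against 1.58%. With Aβ at 10 μM 3 members (Irf1, Xaf1, and Cxcl10) were at least 2-fold higher, against 3.77%, and 0 were lower, against 1.94%. Between the doses, 3 members (Irf1, Cxcl10, and Ifit2) were at least 2-fold higher at 10 than at 5 μM, against 2.93% of all genes, and 1 (Ifit3) was lower, against 3.17%. The lowest members were Ifit2 (-1.32), Rsad2 (-0.67), and Irf1 (-0.60) at 5 μM, and Trim30a (-0.25), Ifi44 (-0.18), and Irf9 (-0.12) at 10 μM.

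The values of Irf1 and Xaf1 came from 1 of 2 probes, and the probes of these genes went apart. Irf1 encodes a transcription factor of the interferon gamma response. Its brighter probe was at 10.18 and 10.10 with Aβ at 5 and 10 μM, 9.79 and 9.85 with streptozotocin at 2.5 and 3 mg/kg, and 9.81 with scopolamine, a ratio of 0.19 at 10 μM. Its dimmer probe was at 1.68, 6.27, 1.99, 2.75, and 1.68 in that order, and was well above background on the 10 μM array alone of all 12. This makes the dimmer probe at least 3.95-fold higher there than on the other 4 ICR arrays, where such a limit replaces each dim value by the faintest signal that still counted as well above background on that array, unless the probe itself was brighter.

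Xaf1 encodes a protein that promotes apoptosis. Its brighter probe was at 7.65 and 7.49 on the Aβ arrays, 7.93 and 7.80 on the streptozotocin arrays, and 7.89 with scopolamine, so the Aβ arrays were the lowest of the 5. Its dimmer probe was at 8.88 and 9.12 on the Aβ arrays and between 1.91 and 4.00 on the other 10 arrays, at least 24.1-fold higher than on the other 3 ICR arrays. The gene ratios of Xaf1, 2.15 and 2.21 with Aβ, -1.49 with streptozotocin at 3 mg/kg, and -2.05 with scopolamine, average these probes. With the brightest probe alone they were -0.13, -0.33, 0.07, and 0.17, so all 4 turned in direction. The ratio of Irf1 at 10 μM was 0.19 with its brightest probe, so that 1 member (Cxcl10) remained at least 2-fold higher on that array.

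**Figure D3:**
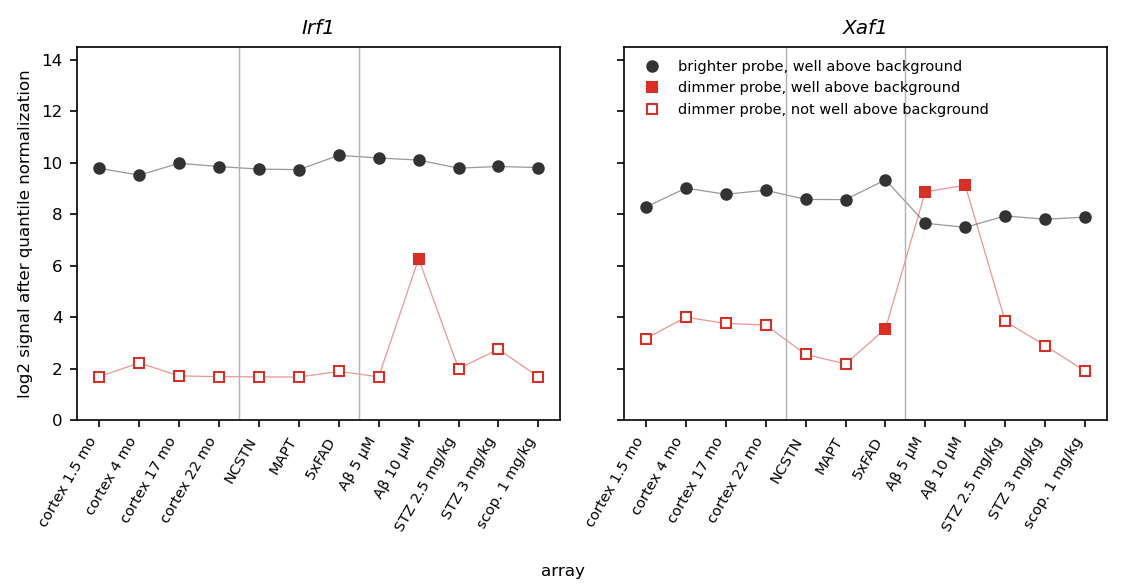
Log2 signal of the brighter (circles) and dimmer (squares) probe of Irf1 and of Xaf1 on the 12 arrays; open symbols were not well above background, and vertical lines part cortex, transgenic hippocampus, and ICR hippocampus. The dimmer Irf1 probe leaves the background on the Aβ 10 μM array alone, and the dimmer Xaf1 probe is near 9 on both Aβ arrays and at 4.00 or lower elsewhere, while the brighter probes show no such step.

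The other 9 members with 2 probes had no gap of that size, since in none of them did the probes differ by more than 1.32 in ratio on any array. That largest gap was in Iigp1 with streptozotocin at 2.5 mg/kg, where the brighter probe had a ratio of 0.44 and the dimmer one of -0.88, not well above background there. Smaller gaps could also turn a direction, as in Dtx3l on the NCSTN array and in Zbp1 with streptozotocin at 2.5 mg/kg.

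The Ifit1, Ifit2, and Ifit3 genes, whose proteins bind viral RNA and hold back its translation, went different ways in ICR mice. Ifit3 was at 9.94 and 8.74 with Aβ at 5 and 10 μM, 8.78 and 8.91 with streptozotocin at 2.5 and 3 mg/kg, and 6.48 with scopolamine. Ifit2 was at 6.86 and 8.29, 7.03 and 8.42, and 8.97 in the same order, and Ifit1 at 7.20 and 6.69, 5.65 and 6.43, and 5.86. Ifit3 was thus highest and Ifit2 lowest with Aβ at 5 μM, and with scopolamine Ifit2 was highest and Ifit3 lowest.

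With scopolamine the ratio of Ifit3 was -2.61, lower than that of all but 0.0255% of genes, and the ratio of Ifit2 was 1.32. Ifit3b, a close copy of Ifit3, was at 5.84 with scopolamine and between 5.02 and 6.20 on the other 4 arrays, a ratio of 0.03. Ifit1bl1, a further family member, had a ratio of -3.25 and was not well above background there. Genes of this family are alike in sequence, and how far a probe reads its neighbours was not tested.

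**Figure D4:**
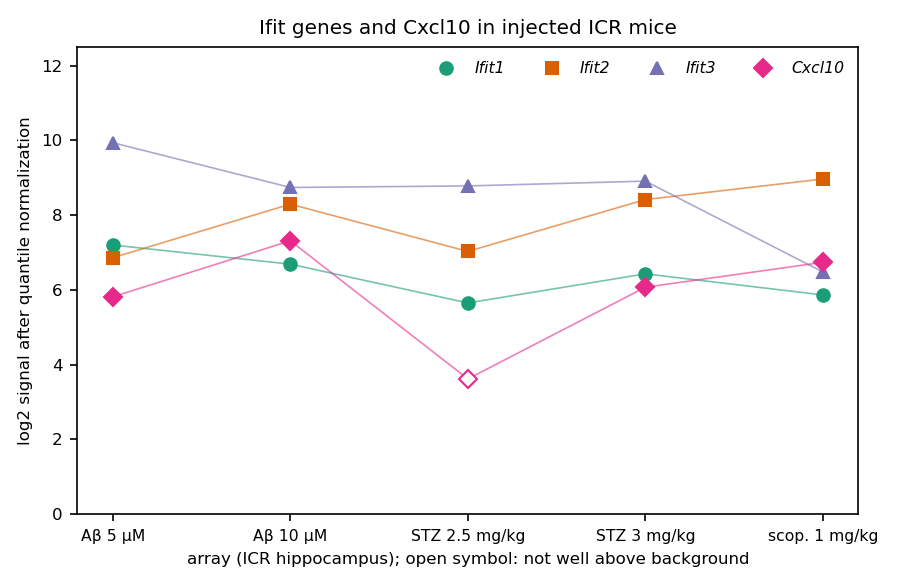
Log2 signal of Ifit1, Ifit2, Ifit3, and Cxcl10 on the 5 ICR arrays; the open symbol marks a value not well above background, and lines join values of 1 gene. Ifit3 drops to 6.48 with scopolamine where Ifit2 is at its highest, and Cxcl10 is lowest with streptozotocin at 2.5 mg/kg.

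With scopolamine 2 members (Ifit2 and Cxcl10) were at least 2-fold higher, against 2.96% of all genes, and 3 (Ifit3, Xaf1, and Oas2) were at least 2-fold lower, against 2.15%. The ratio of Cxcl10 (1.03) was under 2-fold in 5 of 12 alternatives, down to 0.16. Its reference value with streptozotocin at 2.5 mg/kg, 3.62, was not well above background. Oas2 was at 5.66 and 5.37 on the Aβ arrays at 5 and 10 μM, at 4.58 and 4.85 on the streptozotocin arrays, and at 4.10 with scopolamine. It was well above background on both Aβ arrays and on none of the other 3, so no order can be read among those 3, and its ratio with scopolamine (-1.01) was under 2-fold in 7 of 12 alternatives, down to -0.21. The third highest member with scopolamine was Trim30a, at 0.76.

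With streptozotocin at 2.5 mg/kg 0 members were at least 2-fold higher, against 2.48% of all genes, and 3 were at least 2-fold lower, against 4.83%. This array was the lowest of the 5 for 20 of 36 members, against 22.2% of all genes. Its 5 cortex markers had a median ratio of 0.70, the highest of the 5 arrays, and the part of cortex tissue in the result was not tested. Cxcl10 was at 5.81 and 7.31 with Aβ at 5 and 10 μM, 3.62 and 6.07 with streptozotocin at 2.5 and 3 mg/kg, and 6.74 with scopolamine. The value of 3.62 did not stand well above background, so the difference from the mean of its 4 partners is given as a limit, at least 3.75-fold lower. Ifit2 had a ratio of -1.11, and the third, Oas3, was not above background on any array. Below 2-fold, Ifit1 (-0.90), Usp18 (-0.85), and Ifi27 (-0.78) were low. The inducible GTPases had a median of -0.43, and the ratio of Iigp1 was above 0 in its brighter probe, as given above. The highest members were Zbp1 (0.31), Rsad2 (0.30), and Ifit3 (0.26). The Zbp1 value came from its dimmer probe, not well above background there, as its brighter probe had a ratio of -0.11. In the matrix of values that the authors deposited, the median of the members on this array was 0.0063, where that of all genes was 0.24.

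With streptozotocin at 3 mg/kg 0 members were at least 2-fold higher, against 2.21%, and 2 (Xaf1 and Bst2) were at least 2-fold lower, against 2.76%. Of these, Bst2 had a single probe and a ratio of -1.04, and the Xaf1 value was described above. Ifi27 was the next lowest at -0.50, and Ifi44 (0.76), Ifit2 (0.63), and Ifit3 (0.43) were highest. Between the doses 30 of 36 members were higher at 3 than at 2.5 mg/kg, against 52.3% of all genes, by a median of 0.21 against 0.01 for all genes. The 2-fold line was passed upward by 3 members, against 4.13% of all genes, and downward by 0, against 2.75%. Of the 3, only Ifit2 was measured at both doses: Cxcl10 was not well above background at 2.5 mg/kg, and Oas3 has no level. Meninges markers differed between these arrays as well, with summed log2 levels of 12.1 and 14.0.

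Of the 102 other pathway genes, 9 were at least 2-fold higher and 0 lower with Aβ at 5 μM, against 3.82% and 1.58% of all genes. Of these 9, Ifne, Ifng, Ikbke, and Slfn5 were not well above background on any ICR array, so the count overstates the genes measured as higher. At 10 μM 4 were higher and 1 lower, against 3.77% and 1.94%, which is near the background. With streptozotocin at 2.5 mg/kg 2 were higher and 7 lower, against 2.48% and 4.83%. Among these, Oas1g, Ifne, Tap1, and Epsti1 were not well above background on any ICR array, as was the lower gene at 10 μM, Ifne. Ifitm1, a relative of Ifitm3, was at 10.30 and 10.31 on the Aβ arrays, 7.92 and 8.86 on the streptozotocin arrays, and 8.91 with scopolamine, so that the Aβ arrays lay above the other 3. Gbp4, a relative of Gbp2, was at 6.72, 7.19, 5.23, 6.49, and 7.69 in the same order, lowest with streptozotocin at 2.5 mg/kg and highest with scopolamine. Among the members, Stat2 hardly differed within this set, with ratios from -0.11 to 0.19. Irf7 was not well above background on any of the 5 arrays.

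In cortex the youngest array was the lowest of the 4 ages for 22 of the 36 members, against 27.8% of all genes. At 1.5 months 0 members were at least 2-fold higher, against 1.95%, and 1 (Cxcl10) was at least 2-fold lower, against 2.45%. At 17 months 3 (Cxcl10, Oas2, and Ifit1) were at least 2-fold higher, against 2.33%, and 0 were lower, against 1.83%. At 4 months 0 were higher (1.96%) or lower (1.51%), and at 22 months 0 were higher (1.89%) or lower (1.66%).

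Cxcl10 was at 5.55, 6.45, 7.43, and 6.68 at 1.5, 4, 17, and 22 months. Oas2 was at 5.53, 5.59, 6.88, and 6.05, and Ifit1 at 6.40, 7.29, 7.87, and 6.89. All 3 genes were highest at 17 months and lower again at 22 months. Rsad2 (6.38, 7.45, 7.72, and 6.68), Ifitm3 (10.07, 10.32, 11.03, and 9.90), and Ifit3 (9.38, 10.04, 10.31, and 9.98) also peaked at 17 months. From 17 to 22 months 28 of 36 members were lower, against 47.5% of all genes, and the median was -0.24, against 0.01 for all genes. Among the 18 effectors 12 were highest at 17 months, Oas3 with no level among them, whereas Isg15, Rtp4, Xaf1, and Trim30a were highest at 4 months, Ifi27 at 22 months, and Ifi44 at 1.5 months.

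The 17-month array also carried other signals. Its 5 choroid plexus markers summed to 15.6, against 8.62 to 9.08 at the other ages, with Ttr at 15.57 against 5.11 to 6.85. Its granulocyte markers had a median ratio of 1.96, with a summed level of 10.97 at 17 months and 10.91 at 4 months against 8.48 at 1.5 months and 8.75 at 22 months. The microglia markers varied little, with a summed level of 14.4 to 14.6. The part of choroid plexus or of blood cells in the interferon values was not tested.

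The mean of the 17- and 22-month arrays lay above that of the 1.5- and 4-month arrays for 26 of 36 members, against 53.1% of all genes, by a median of 0.11 where that of all genes was 0.01. The median turned to -0.05 without the 1.5-month array and to -0.02 without the 17-month array. At least 2-fold higher in the older pair was 1 member (Cxcl10, 1.06), against 1.93% of all genes, and 0 were lower, against 1.58%; the Cxcl10 difference was 0.61 without the 1.5-month array and 0.68 without the 17-month array. Both older arrays lay above both younger ones for 8 of 36 members (Irf9, Stat2, Usp18, Oas2, Bst2, Lgals3bp, Dtx3l, and Cxcl10), against 20.1% of all genes, and below both for 2 (Gbp2 and Iigp1), against 15.1%. The share above is close to its background.

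Stat2 was at 9.75, 9.97, 10.05, and 10.16 and Irf9 at 9.01, 9.16, 9.34, and 9.40 over the 4 ages, so that both subunits of the factor were higher at each later age by small steps. Ifi27 was highest at 22 months (12.74, 13.30, 13.26, and 13.54). Dtx3l was at 5.42 and 5.41 on the younger arrays and 6.36 and 6.30 on the older ones, but its dimmer probe was not well above background on any cortex array, and the brighter probe was at 7.97, 8.07, 8.64, and 8.27.

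The inducible GTPases lay the other way from the effectors. Their median difference between older and younger arrays was -0.31, with 4 of 5 below 0, against 46.9% of all genes. That of the 18 effectors was 0.18, with 15 above 0, Oas3 with no level among them, against 53.1% of all genes. Without the 1.5-month array Ifit2, Rsad2, Oas1a, Oasl2, Eif2ak2, Xaf1, and Trim30a of these 15 fell below 0, and every GTPase was below 0. Gbp2 was at 8.28, 8.49, 8.09, and 8.07, Igtp at 9.69, 9.49, 9.27, and 9.54, and Iigp1 at 6.55, 6.43, 5.97, and 5.94 over the 4 ages. Gbp3 was at 8.59, 8.95, 8.18, and 8.64, lowest at 17 months. Irgm1 stayed between 8.23 and 8.40. Among the effectors Ifi44, at 6.85, 6.17, 6.17, and 5.63, was highest at 1.5 months and lowest at 22 months, as was the probe mean of Iigp1. The brighter Iigp1 probe was lowest at 17 months, at 7.61 against 7.76 at 22 months.

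**Figure D5:**
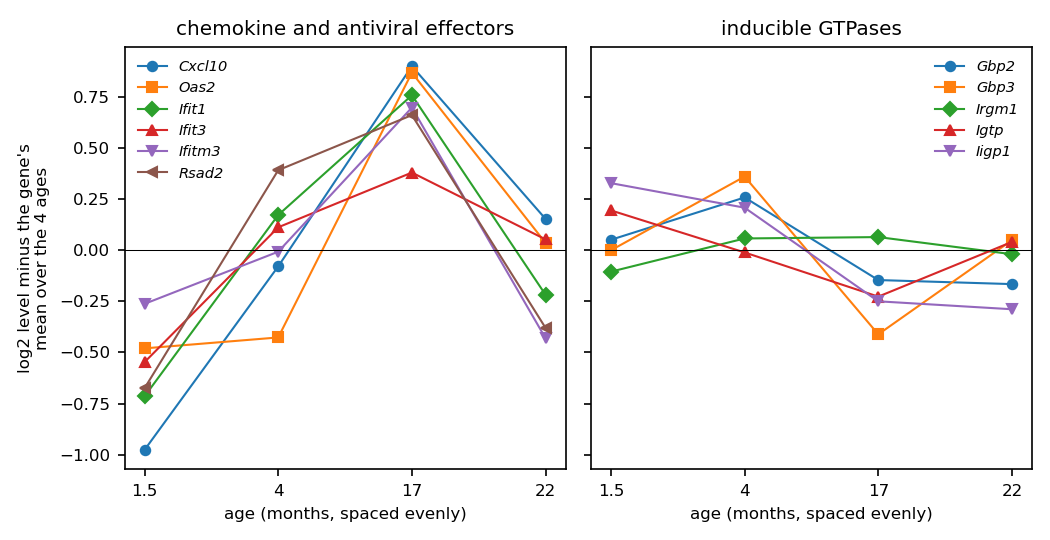
Log2 level minus the mean of the gene over the 4 cortex arrays, at 1.5, 4, 17, and 22 months, for Cxcl10 and 5 effectors (left) and the 5 inducible GTPases (right); each point is 1 array of 3 pooled animals and ages are spaced evenly. The genes on the left peak at 17 months, and Gbp3 and Igtp on the right are lowest at that age.

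Among the 102 other pathway genes, the 62 induced genes had a median of 0.07 at 17 months, and 3 of the 102 were at least 2-fold higher and 2 at least 2-fold lower there, near the 2.33% and 1.83% of all genes. Cxcl9, a chemokine induced by interferon gamma and a relative of Cxcl10, went the other way: its log2 signal was 4.39 at 1.5 months, the single cortex array on which it was well above background, and 1.89 to 1.90 at the other ages. Ccl5 was high at 1.5 months as well, with a ratio of 1.18, and low at 17 months, with -1.14. Ifnb1, with a ratio of 2.28 at 22 months, was not well above background on that or any other array.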

How the data were processed

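The authors labelled RNA pooled from 3 animals per model for Agilent one-colour arrays and deposited the intensity of each spot as the scanner software gave it, not normalized between arrays, and a matrix of processed intensity values. Here outlier spots (110 to 234 per array) were dropped, the processed signals were put on the log2 scale, and spots of 1 probe were averaged. Probes at least 1.4-fold over the local background on all 12 arrays, a filter taken from the methods, were kept (36520 of 39429) and quantile normalized. Accessions without versions were matched to RefSeq symbols (GRCm38.p6; 27502 probes matched), and probes of a gene were averaged. No spot was saturated, and 63.5% to 75.8% of probes were well above background.

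A call needed a 2-fold difference and no test was run. Members and lists were chosen with earlier results of these data known. Genes were named by a rule: on each array the 3 highest members well above background and the 3 lowest with a reference array well above background, every member past 2-fold, and genes of the fixed lists. The functions were tested on simulated data. Alternatives were other scalings, filters, probe rules, references, and thresholds, normexp background correction on median signals, and the deposited matrix, whose columns did not share 1 distribution. Python 3.11.15, numpy 2.4.6, pandas 2.3.3, R 4.3.3, and limma 3.58.1 were used. Some items are not reported here.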

Additional observations from a re-analysis of the deposited data

How the results depend on the processing

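With 1 array per model no result has a replicate check, and probes near background limit what can be said of Oas3, Irf7, Oas2, Ifi44, and Cxcl10 in ICR mice. No paired analysis was possible because each group is 1 array. Of the recomputed medians over the members, 157 stayed within the 95% interval of the main median over members and 12 moved further. A further 4 changed sign where this interval left out 0, and sign changes where it held 0 were not counted apart. The interval takes the members as independent of each other, so it does not measure spread between arrays or animals. With normexp background correction the median was 0.53 on the 5xFAD array, -0.34 on MAPT, and 0.19 with Aβ at 10 μM, and 8 members were at least 2-fold higher on 5xFAD. At 1.5-fold and 3-fold thresholds that count was 26 and 2. In the deposited matrix the median was 0.041 with Aβ at 10 μM, 0.0063 with streptozotocin at 2.5 mg/kg, and -0.31 with scopolamine, where the medians of all genes were -0.14, 0.24, and -0.22. With 75th percentile scaling it was -0.10 with streptozotocin at 3 mg/kg. With the filter at 2-fold over background, Xaf1 had ratios of -0.13 and -0.32 with Aβ at 5 and 10 μM, 0.058 with streptozotocin at 3 mg/kg, and 0.17 with scopolamine. Both with probes well above background on the whole set and with the brightest probe, they were -0.13, -0.33, 0.065, and 0.17. These 3 settings drop the dimmer Xaf1 probe. The cause of the other shifts was not tested.

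Leaving out 1 reference array at a time gave medians of 0.77 to 0.92 on 5xFAD (12 to 16 members at least 2-fold higher), -0.77 to 0.20 on NCSTN, and -0.92 to -0.20 on MAPT. The value of 0.20 on NCSTN and of -0.20 on MAPT came without 5xFAD. The range was 0.055 to 0.24 and 0.26 to 0.38 with Aβ at 5 and 10 μM, -0.43 to -0.31 and -0.11 to 0.076 with streptozotocin at 2.5 and 3 mg/kg, and -0.16 to -0.012 with scopolamine. In cortex it was -0.34 to -0.23 at 1.5 months, 0.048 to 0.26 at 4 months, 0.14 to 0.26 at 17 months, and -0.18 to -0.017 at 22 months, and -0.048 to 0.26 for older minus younger arrays.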
